A study of Bos taurus with 18 samples.

Results

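The genes described here are 10 of the 16989 gene symbols in the count files, and all 10 were found there and passed the filter on low counts. They are PHGDH, PSAT1, PSPH, SHMT2, MTHFD2, ALDH1L2, ASNS, TRIB3, DDIT3 and ATF4. They were selected by symbol as a list of serine synthesis, mitochondrial folate and ATF4 response genes, with earlier results of the same counts known, so their levels and spread are given as a description. Poly-adenylated RNA was taken from bovine bone marrow-derived mesenchymal stem cells (MSCs) in monolayer at passage 1, grown in DMEM with serum and antibiotics and without any differentiation agent. Of the 18 libraries, 17 came from clones of 1 donor, each grown from a single cell and named A to Q, and 1 came from a heterogeneous (mixed) population of that donor. The donor was a juvenile cow, and no age, genotype or treatment separates the groups. With 1 library for each population, the error of a value within a clone is unknown, and every spread given is that between clones.

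Serine is made from a glycolytic intermediate by PHGDH, PSAT1 and PSPH acting in turn. In the mitochondria SHMT2 then splits serine into glycine and a carbon unit carried on folate, which MTHFD2 and ALDH1L2 oxidise further. ATF4 is a transcription factor whose protein is made when cells lack amino acids or meet other stress that phosphorylates the initiation factor eIF2alpha, and it is known to switch on enzymes of serine and asparagine synthesis, amino acid transporters and tRNA synthetases. Much of its control is at translation, which counts of its mRNA do not measure.

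Levels are given as CPM (reads of a gene relative to the library's total, scaled by TMM), and the clonal libraries held 11484812 to 18458157 reads on genes. The MSC label was checked on 12 marker genes. THY1 ran from 213 to 591 CPM in the clones, ENG from 137 to 290 and CD44 from 174 to 551, whereas LEPR was near 0 in all libraries. Summed over 14 macrophage and leukocyte markers, the clones held 3.89 to 33.2 CPM and the heterogeneous population 209 CPM, with ITGAM at 0 reads everywhere. Clones C and O lay far closer to each other than any other pair, with a chi-square of 4.90 per gene between their counts against at least 22.3 in the other pairs. As 1 would be sampling noise alone, their counts differ by more than such noise, but this does not show that they are separate clones. Clones C and O were counted as 2 of the 17, and the correlations were repeated without O. In that run r with ATF4 was 0.97 for TRIB3, 0.87 for DDIT3, 0.84 for ALDH1L2 and 0.63 for ASNS. All 4 were called at an adjusted p of 0.0378 or less by permutation, where 1135 of 10350 genes were called positive. Clone N stood apart from the others, with 77 genes higher and 11 lower in it by edgeR's quasi-likelihood test at an adjusted p under 0.05. By limma these were 305 and 43, and the other clones had 0 to 49 genes called higher and 0 lower. Clone N also had the largest share of reads outside genes, 26.8%, and clone L was next with 24.8%, against 18.8% to 22.7% in the other clones.

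Of the stress response arm, TRIB3 and DDIT3 had the widest ranges of the 10 genes. TRIB3, a pseudokinase that holds back ATF4, had 8.31 CPM in the lowest clone (L, 135 reads, exact 95% Poisson interval 6.97 to 9.84 CPM), a median of 64.0 CPM and 93.7 CPM in the highest (D, interval 88.1 to 99.5 CPM). Its 5 lowest clones were L, N, O, G and C, at 8.31, 15.3, 21.5, 25.4 and 26.0 CPM. The other 12 clones lay between 48.1 and 93.7 CPM. The heterogeneous population, at 83.0 CPM, sat within the upper 12. The TRIB3 range was 11.3-fold and its SD over the 17 clones was 1.02 log2 units, larger than the SD of 95.5% of the 10351 genes tested. Counting error alone would give an SD of about 0.06 log2 units for this gene. These intervals cover counting error only, not the variation between cultures of 1 clone.

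DDIT3, which encodes the transcription factor CHOP, ran from 19.6 CPM in clone L through a median of 68.2 CPM to 115 CPM in clone M. Its SD was 0.76 log2 units (n = 17 clones), larger than in 90.4% of genes. Clones C, O and G were again low, at 30.0, 30.5 and 33.5 CPM, but clone J, with 39.4 CPM, was below clone N at 43.5 CPM. Clone J thus had low DDIT3 beside a TRIB3 level of 81.5 CPM that was among the 4 highest. The heterogeneous population had 76.8 CPM of DDIT3.

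ATF4 mRNA itself moved over a much narrower range, 2.21-fold. It had 283.5 CPM in clone L, a median of 549 CPM and 628 CPM in clone D, with an SD of 0.33 log2 units that exceeded that of 57.6% of genes. The 5 clones with the least ATF4 were L, G, N, O and C, at 283.5, 362, 385, 390.3 and 410.1 CPM, the same 5 as for TRIB3. The next clone, H, had 504 CPM, so a gap of 0.30 log2 units lay between these 5 and the other 12, in a whole range of 1.15 log2 units. The heterogeneous population, at 595 CPM, fell among the 12.

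**Figure D1:**
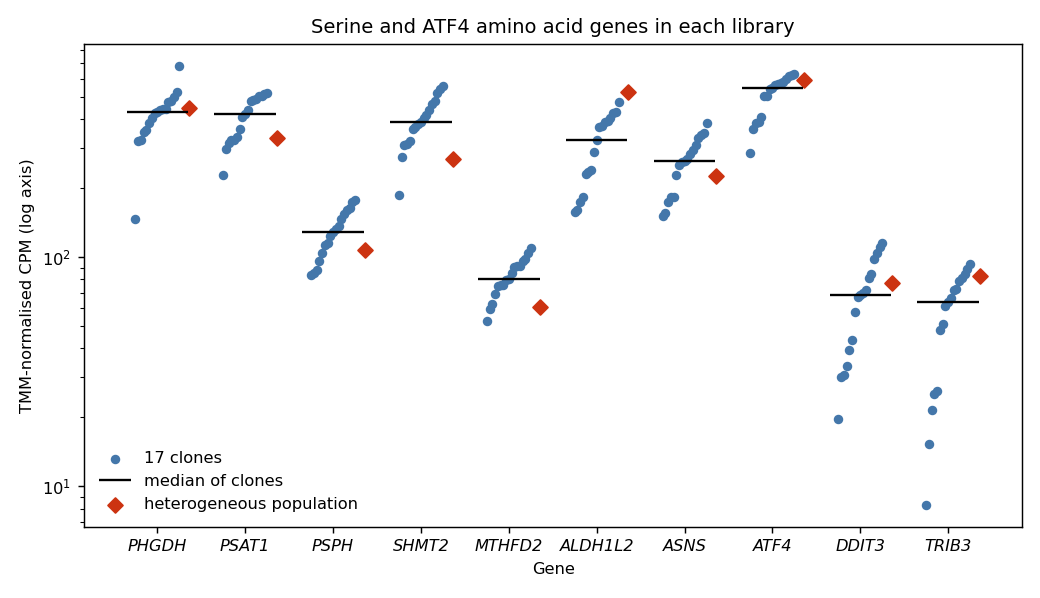
TMM-normalised CPM on a log axis of the 10 genes in each library, where each blue point is 1 of the 17 clones, the bar is their median and the red diamond is the heterogeneous population. TRIB3 spans 8.31 to 93.7 CPM over the clones, whereas ATF4 spans 283.5 to 628 CPM, and the diamond lies above every clone for ALDH1L2 only.

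Of the mitochondrial folate enzymes, ALDH1L2, which oxidises formyl-folate and yields NADPH, followed the stress genes. It had 157.5 CPM in clone O, a median of 323 CPM and 475 CPM in clone M, a 3.01-fold range with an SD of 0.55 log2 units, above that of 82.1% of genes. Clones O, L, N and C held its 4 lowest values, from 157.5 to 182.5 CPM, and G came next at 231 CPM. The heterogeneous population had 527 CPM, more than any clone.

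ASNS, the enzyme that makes asparagine, ran from 151 CPM in clone O through 264 CPM to 384 CPM in clone F (SD 0.42 log2 units, n = 17). Clones O, C, N, P and L were lowest, at 151 to 184 CPM. Clone G, low in ATF4 and TRIB3, had 281 CPM of ASNS, which was above the median.

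The 3 enzymes of serine synthesis and the other folate enzymes of the list ordered the clones differently, with SDs from 0.29 log2 units for MTHFD2 to 0.46 for PHGDH. PHGDH, which commits carbon to serine, had 146 CPM in clone N (2289 reads, interval 140.2 to 152 CPM), a median of 428 CPM and 682 CPM in clone G (interval 669 to 696 CPM). The other 15 clones lay between 322 and 523 CPM. Its SD fell to 0.28 log2 units without clone N. PSAT1, the aminotransferase of the pathway, had 227.5 CPM in clone N and 519 CPM in clone G around a median of 422 CPM. PSPH, the phosphatase that releases serine, had 83.5 CPM in clone N and 177 CPM in clone F around a median of 129 CPM. SHMT2 had 187.5 CPM in clone N and 559 CPM in clone O around a median of 387 CPM, and its next highest clones, C and G, had 541 and 519 CPM. MTHFD2, a mitochondrial folate dehydrogenase, had the narrowest range of the list, from 52.4 CPM in clone N through 79.9 CPM to 110 CPM in clone E. Clone N was thus lowest of the 17 clones in all 5 of these genes. Clones O, C and G, which were low in TRIB3, held the 3 highest values of SHMT2.

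**Figure D2:**
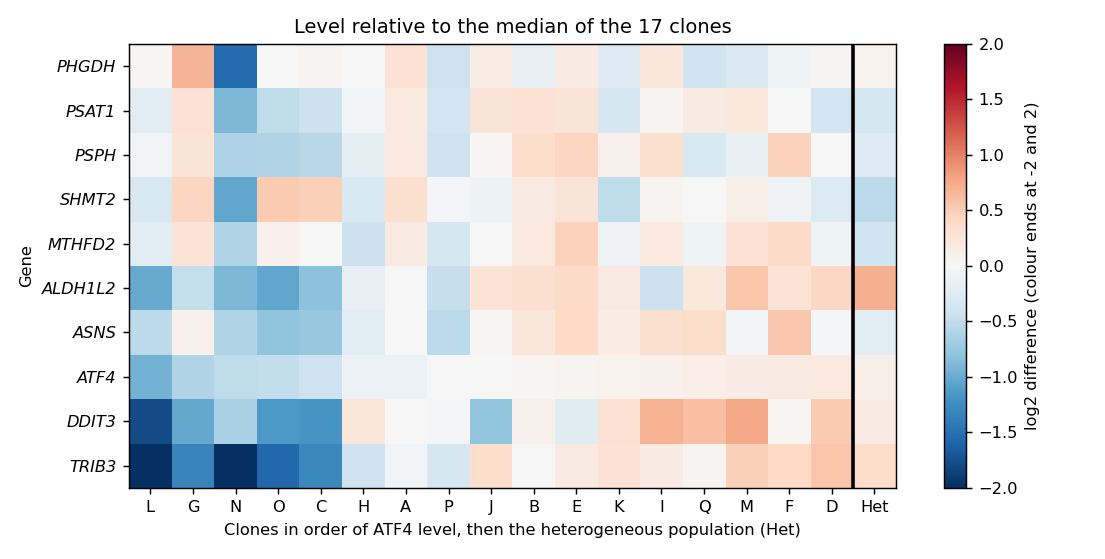
Log2 difference of each gene from its median over the 17 clones, with clones ordered by ATF4 level from left to right and the heterogeneous population (Het) last. Blue (lower) fills the TRIB3, DDIT3 and ALDH1L2 rows at the left in L, G, N, O and C, while PHGDH and SHMT2 are deepest blue in N, at 146 and 187.5 CPM.

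Each clone was then compared with the other 16 by edgeR's quasi-likelihood test, as a description, since the members were chosen with such results known. Over the 17 fits together 0.046% of all tests were called, and 1 of the 170 tests of members was. This was PHGDH in clone N, with a log2 difference of -1.54 (standard error 0.33, adjusted p = 0.0375 by this test), where 0.0935% of genes were called lower. SHMT2 in clone N had -1.09 (standard error 0.34, unadjusted p = 0.0053, adjusted p = 0.136 by the same test) and PSAT1 had -0.85 (standard error 0.32, with an adjusted p of 0.202 in that edgeR fit). TRIB3 in clone L differed by -2.83 (standard error 0.92, unadjusted p = 0.00648, adjusted p = 0.58 by the same test), which did not pass.

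Between the heterogeneous population and the clones, edgeR's quasi-likelihood test called 0 of the 10 members, where it called 1.23% of 11878 genes, 1.22% higher and 0.00842% lower. The unadjusted p was also above 0.05 for all 10, and DESeq2 and limma called none of them either. ALDH1L2 had the largest difference, 0.77 log2 units (standard error 0.47, adjusted p = 0.703 by this test). It was the 1 member above every clone, where 9.56% of genes were. SHMT2 differed by -0.57 (standard error 0.40), MTHFD2 by -0.44 (standard error 0.30) and TRIB3 by 0.56 (standard error 0.80). PHGDH, at 0.09 (standard error 0.42), and ATF4, at 0.22 (standard error 0.32), were closer to the mean of the clones. This comparison takes the spread of the mixed population to be that of the clones. Of 14 macrophage and leukocyte markers 11 passed the filter, and all 11 were above every clone in it (median log2 difference 4.70). A gene could pass that filter on the heterogeneous library alone, so this count is a description only. Of those not passing, CD34 had 0 CPM there and up to 0.511 CPM in a clone. LYZ had 0.131 CPM against at most 0.089 CPM, and ITGAM had 0 everywhere. The part of these markers in the differences above was not tested. Here and in the clones, fewer cells of a type and less RNA per cell cannot be told apart.

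The other pathway lists gave the same count. In the heterogeneous population, 0 of 18 folate and glycine enzymes, 0 of 20 further ATF4 response genes, 0 of 13 amino acid transporters, 0 of 18 cytosolic tRNA synthetases, 0 of 16 eIF2alpha kinases and factors and 0 of 17 chaperones of the endoplasmic reticulum (ER) passed edgeR's test. At an unadjusted p under 0.05 these lists held 4, 1, 0, 2, 1 and 1 genes, DESeq2 called none of them and limma called 1 folate and glycine enzyme. SDS, serine dehydratase, had 2.04 CPM there against at most 0.516 CPM in a clone, a log2 difference of 3.71. It had at most 31 reads in a library and did not pass the filter within the clones, so it was tested only through the heterogeneous library. WARS, the tryptophan tRNA synthetase, had 258 CPM against at most 173 CPM in a clone (adjusted p = 0.385 by edgeR's test). Of 18 proliferation genes, 14 were below every clone, where 8.60% of genes were, with a median log2 difference of -2.91 against -0.03 over all genes, but 0 were called by edgeR, DESeq2 or limma, with 2, 15 and 0 at an unadjusted p under 0.05. MKI67 had 18.6 CPM there and 21.7 to 593 CPM in the clones.

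The members did not vary as 1 group over the clones. Over the 17 clones, and as a description with no test over the list, the 45 pairs had Pearson r values from -0.13, for SHMT2 and DDIT3, to 0.97, for TRIB3 and ATF4. ALDH1L2, DDIT3, TRIB3 and ATF4 formed the closest set, with r between 0.71 and 0.97. ASNS had r = 0.77 with ALDH1L2 and 0.60 with DDIT3, and also 0.84 with PSPH and 0.72 with PSAT1, so that it sat between the sets. PHGDH had r = 0.71 with SHMT2, 0.63 with MTHFD2, 0.62 with PSAT1 and 0.55 with PSPH. These values lean on clone N, without which they were 0.40, 0.38, 0.30 and 0.41. SHMT2 and MTHFD2, which act in sequence in the mitochondria, kept r = 0.53 without clone N (0.70 with it). TRIB3 and ATF4 had 0.98 without clone N and 0.91 with library totals in place of TMM.

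**Figure D3:**
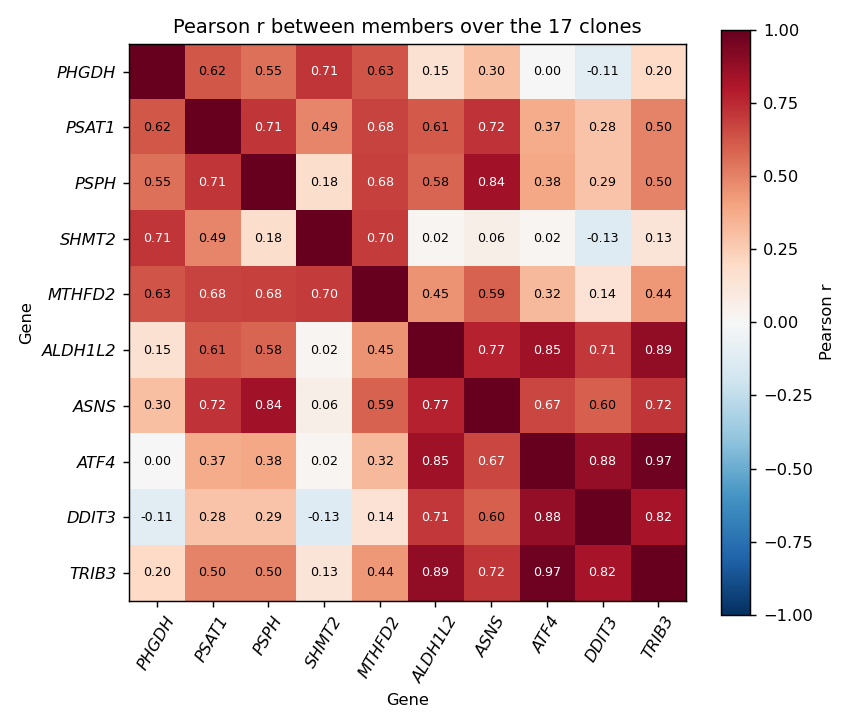
Pearson r between each pair of the 10 genes over the 17 clones, from log2(CPM + 0.25). The lower right block of ALDH1L2, ASNS, ATF4, DDIT3 and TRIB3 holds r from 0.60 to 0.97, the upper left block of serine and folate enzymes 0.18 to 0.71, and PHGDH against ATF4 is at 0.00.

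To place these values among all genes, every one of the 10350 other genes tested was correlated with ATF4 over the 17 clones, with two-sided permutation p-values adjusted over all of them by the Benjamini-Hochberg method. A large share of the transcriptome moved with ATF4, since 14% of genes were called with a positive r and 13.9% with a negative one. Against that background 4 of the 9 other members were called, all positive. TRIB3 had the largest r of all genes, 0.97 (permutation p = 1e-05, the smallest that 100000 resamples give, adjusted p = 0.00119, rho = 0.93 with the same p, and r = 0.96 without clones G and L, the 2 farthest from the median ATF4). DDIT3 ranked 57 (r = 0.88, permutation p = 1e-05, adjusted p = 0.00119, rho = 0.81, p = 0.00018, r = 0.80 without G and L). ALDH1L2 ranked 116 (r = 0.85, permutation p = 2e-05, adjusted p = 0.00139, rho = 0.82, p = 0.00012, r = 0.88 without G and L). ASNS was lower, at rank 918 (r = 0.67, permutation p = 0.00348, adjusted p = 0.0189, rho = 0.61, p = 0.0107, r = 0.83 without G and L), and it was no longer called by rho (adjusted p = 0.0549) or with library totals in place of TMM (r = 0.53, adjusted p = 0.0981).

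The enzymes of serine synthesis were not called with ATF4. PSPH had r = 0.38 (permutation p = 0.128, adjusted p = 0.241, rho = 0.40, p = 0.108) and PSAT1 r = 0.37 (p = 0.145, adjusted p = 0.265, rho = 0.19, p = 0.472), and without clones G and L these were 0.70 and 0.65. MTHFD2 had r = 0.32 (permutation p = 0.205, adjusted p = 0.340, rho = 0.35, p = 0.175). SHMT2 (r = 0.02, permutation p = 0.950, rho = -0.12, p = 0.653) and PHGDH (r = 0.00, permutation p = 0.986, rho = -0.14, p = 0.580) had r near 0 with ATF4 over all the clones. Without clones G and L SHMT2 had r = -0.0002 and PHGDH 0.36. Their sign depended on the scaling, with r = -0.31 and -0.24 under library totals.

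**Figure D4:**
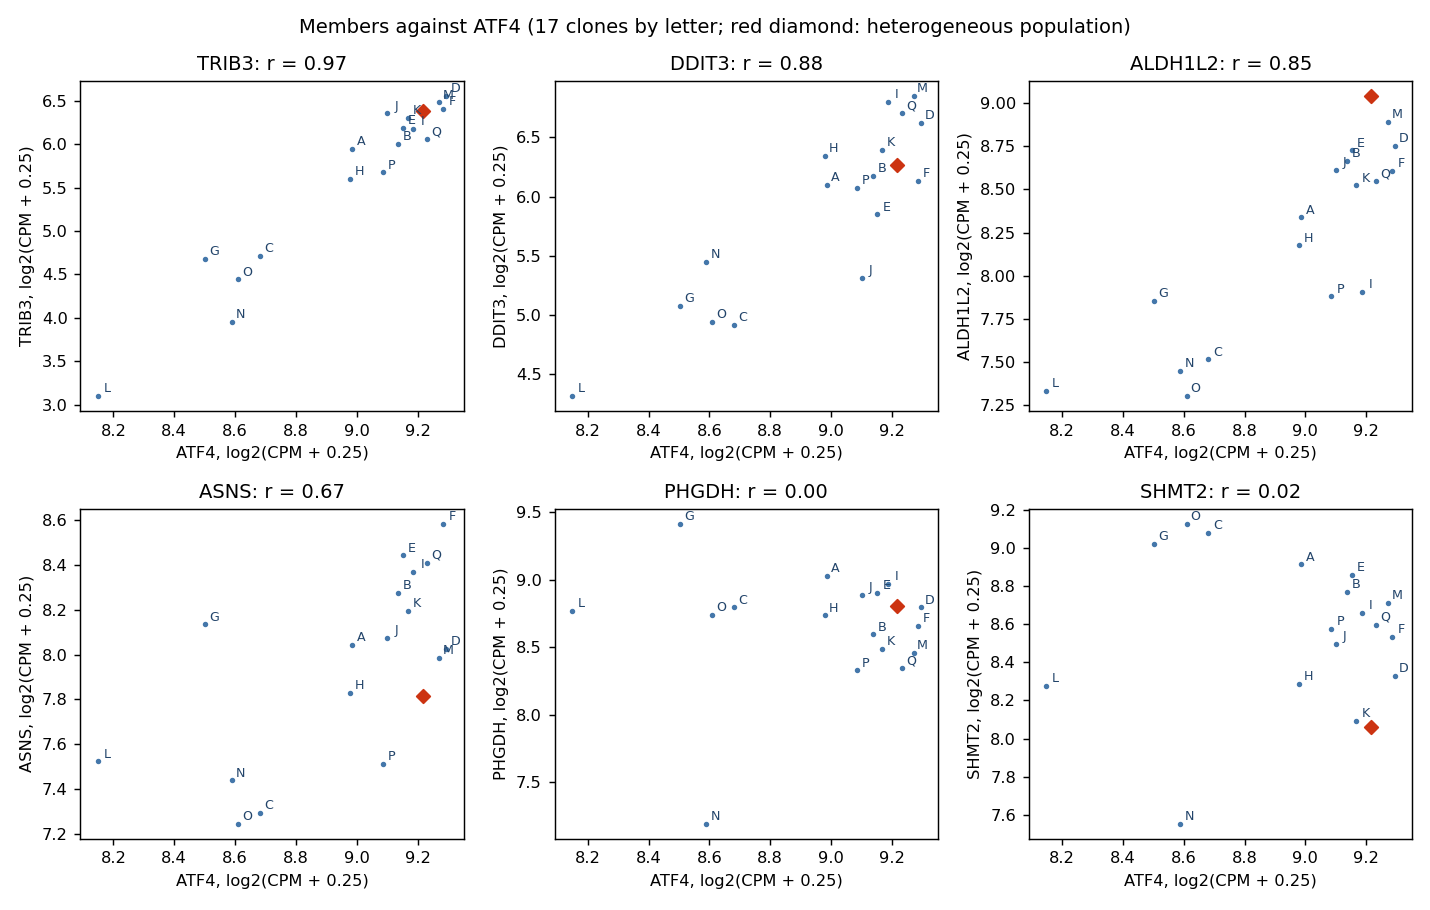
Log2(CPM + 0.25) of 6 members against that of ATF4, with each of the 17 clones at a dot beside its letter and the heterogeneous population as a red diamond. TRIB3 rises with ATF4 (r = 0.97) with L, G, N, O and C at the lower left, whereas clone N alone is low in PHGDH (r = 0.00) and O, C and G are high in SHMT2 (r = 0.02).

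The relation with ATF4 was also computed within the clones on the upper side of the gap in its levels. Among these 12 clones, a choice made after seeing the levels, 0 of 10350 genes were called and 1430 had an unadjusted permutation p under 0.05. TRIB3 still had r = 0.79 there (permutation p = 0.00258, adjusted p = 0.232, rho = 0.82, p = 0.00177). ALDH1L2 had 0.52 (permutation p = 0.0842, rho = 0.55, p = 0.0703), ASNS 0.48 (p = 0.117, rho = 0.41, p = 0.184) and DDIT3 0.46 (p = 0.137, rho = 0.56, p = 0.0644). The other 5 clones are too few for a value of their own.

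A measure of the libraries moved with several members, and its part in their relations was tested only by removing a straight line, as given here. The share of reads outside genes had r = -0.77 with TRIB3 (permutation p = 0.00102, adjusted p = 0.0163 over all genes, rho = -0.66, p = 0.00508, r = -0.49 without clones L and N, the 2 farthest from its median). It had r = -0.68 with ALDH1L2 (permutation p = 0.00157, adjusted p = 0.0210, rho = -0.70, p = 0.00226) and r = -0.66 with ATF4 (permutation p = 0.00547, adjusted p = 0.0443, rho = -0.50, p = 0.0427). With 8.40% of all genes called in that direction, 4 of the 10 members were called, MTHFD2 being the other. After a straight line on this share was removed from every gene, r with ATF4 was 0.96 for TRIB3 and 0.89 for DDIT3. It was 0.73 for ALDH1L2 and 0.59 for ASNS. All 4 were still called at an adjusted p of 0.0390 or less by permutation, where 17.7% of genes were called positive. PHGDH and SHMT2 then had r = -0.56 and -0.64 with ATF4 (adjusted p = 0.0484 and 0.0210 by permutation), where 19.8% of genes were called negative. Total reads on genes had r between -0.20 and 0.18 with the 10 members, and the smallest permutation p of these r values was 0.418. By rho PHGDH lay farthest from 0, at -0.47 (permutation p = 0.0585).

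Of 20 further genes that ATF4 is known to switch on, 12 were called positive with it and 0 negative, with a median r of 0.66 against 0.02 over all genes. The positive count was 9 with library totals, 9 by rho and 8 after removing the share of reads outside genes. Over all 10350 genes the positive count was 1444 in the main run. It was 500 with library totals, 965 by rho and 1829 after that removal. The other 8 genes were not called, and 3 of them, GPT2 (-0.33), ALDH18A1 (-0.24) and TXNIP (-0.06), had a negative r. SESN2, a stress-induced regulator of growth signalling, had rank 2 of all genes (r = 0.96, permutation p = 1e-05, adjusted p = 0.00119, rho = 0.90, r = 0.96 without G and L), and CHAC1, which degrades glutathione, had rank 3 (r = 0.93, the same p and adjusted p, rho = 0.875). CHAC1 had 0.800 CPM in clone L, a median of 30.0 CPM and 59.9 CPM in clone M. NUPR1 (r = 0.85), VLDLR (0.84), JDP2 (0.84) and CEBPG (0.79), a partner protein of ATF4, were also called, with adjusted p of 0.00399 or less by permutation. Among the 12 clones above the gap SESN2 had r = 0.79 (permutation p = 0.00103, rho = 0.77, p = 0.0048) and CHAC1 r = 0.68 (p = 0.0166, rho = 0.66, p = 0.0219).

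Of 10 amino acid transporters 4 were called positive with ATF4 and 0 negative. SLC6A9, a glycine transporter, had r = 0.89, SLC1A4, which carries serine and alanine, had 0.82, and SLC3A2, the heavy chain of several transporters, had 0.79 (adjusted p of 0.00482 or less by permutation). Of 18 cytosolic tRNA synthetases 8 were positive and 2 negative. WARS (r = 0.86) and QARS (0.84) led, while LARS (-0.64) and RARS (-0.64) went the other way. With library totals this split was 2 positive and 4 negative, where 500 of 10350 genes were positive and 1412 negative. By rho it was 5 and 0, where 965 and 899 genes were. Its balance thus depends on the scaling and the measure, and that of all genes moved with library totals too. None of the 16 eIF2alpha kinases and factors was called with ATF4 (median r = -0.02). Of 17 ER chaperones and unfolded protein response genes 3 were called positive, HERPUD1 (r = 0.92), DNAJB9 (0.61) and SEL1L (0.59), and 1 negative, PDIA4 (-0.65). These ER counts are not set apart from all genes, of which 14% were called positive and 13.9% negative.

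Several folate enzymes outside the list had the opposite sign. Of 16 folate and glycine enzymes 4 were called negative and 1 positive. TYMS, which makes thymidylate, had r = -0.86 (adjusted p = 0.00175 by permutation), the cytosolic MTHFD1 -0.85 (adjusted p = 0.00277) and the mitochondrial folate carrier SLC25A32 -0.67 (0.0171), while CBS, which uses serine to make cystathionine, had 0.60 (0.0393). All 18 proliferation genes were called negative, from RRM2 at -0.74 to TYMS, which is in both lists, at -0.86, with a median of -0.78. The count stayed at 18 of 18 with library totals, with DESeq2 size factors, without clone N, without clone O and after removing the share of reads outside genes, and was 16 by rho, where MCM3 (adjusted p = 0.0836 by permutation) and RRM2 (0.0562) were not called. MKI67 (r = -0.79, permutation p = 0.00022, adjusted p = 0.00351, rho = -0.75, p = 0.00094) had 560 CPM in clone L and 593 CPM in clone O. In the 12 clones above the gap all 18 still had a negative r (median -0.49) and 0 were called, with 2 at an unadjusted permutation p under 0.05. MKI67 had r = -0.60 there (permutation p = 0.0397, rho = -0.55, p = 0.0709). Of 11 MSC markers, the collagen genes COL1A2 (r = 0.84) and COL1A1 (0.67) were called positive and NT5E (-0.61) negative. Among all genes 14% were called positive and 13.9% negative, so these counts do not set the markers apart.

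PHGDH was followed in the same way. It was called positive with 6.43% of genes and negative with 6.12%, and 2 of the 9 other members were called, SHMT2 (r = 0.71, permutation p = 0.00394, adjusted p = 0.0379, rho = 0.45, p = 0.0768) and MTHFD2 (r = 0.63, permutation p = 0.00516, adjusted p = 0.0450, rho = 0.47, p = 0.0594). Without clones G and N, the 2 farthest from the median PHGDH, these fell to 0.26 and 0.31. Without clone N alone 0 of 10350 genes were called with PHGDH and 2253 had an unadjusted permutation p under 0.05, so the calls rest on that clone. The tRNA synthetases CARS (r = 0.90, adjusted p = 0.00383) and YARS (r = 0.88, adjusted p = 0.00304 by permutation) ranked 3 and 7 of all genes, with r = 0.75 and 0.74 without G and N. The large neutral amino acid transporter SLC7A5 had r = 0.79 (adjusted p = 0.0107 by permutation), and IMPACT, an inhibitor of the amino acid sensor kinase GCN2, had -0.85 (adjusted p = 0.00852) and -0.81 without G and N. Of the 20 ATF4 response genes 0 were called with PHGDH, with a median r of 0.16. Of the 18 proliferation genes 0 were called with PHGDH and all had r above 0. After removing the share of reads outside genes 17 of them were called positive, where 1237 of 10350 genes were.

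**Figure D5:**
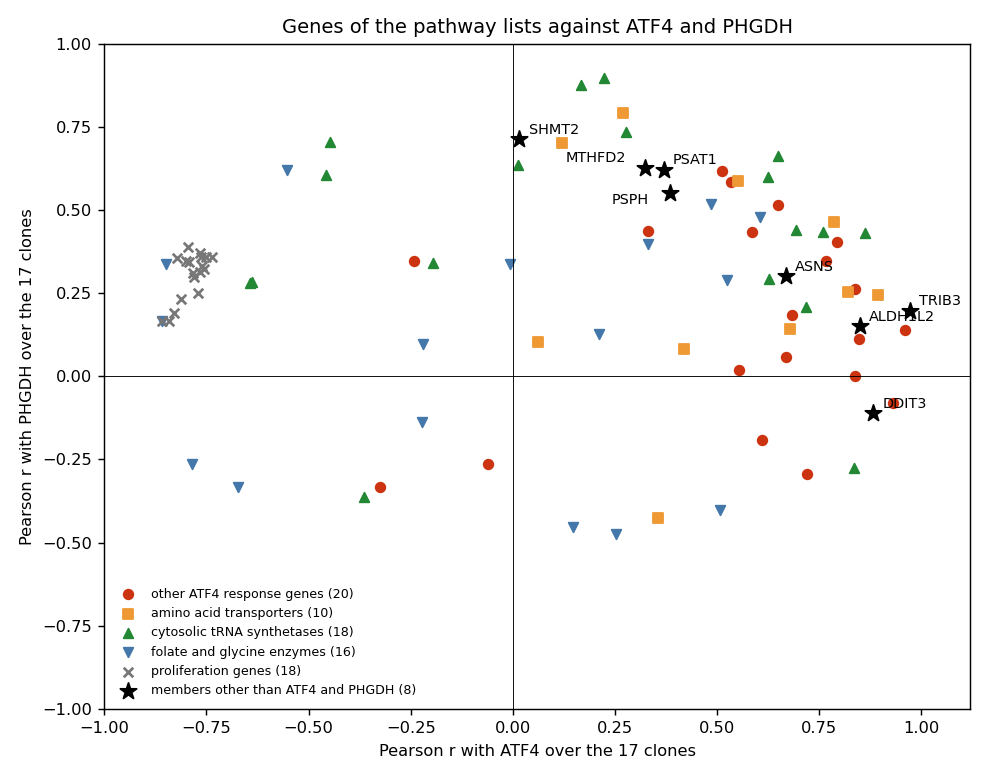
Pearson r over the 17 clones with ATF4 (horizontal) and with PHGDH (vertical) for the genes of 5 pathway lists and for the 8 members other than ATF4 and PHGDH, with the number of genes per list in the key. TRIB3, DDIT3, ALDH1L2 and ASNS lie at the right among the ATF4 response genes, SHMT2 lies near 0.02 on the ATF4 axis and at 0.71 on the PHGDH axis, and the proliferation genes cluster at the left with r from -0.86 to -0.74.

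Among the genes whose pattern was most like the mean of the 10 scaled members over the 17 clones, as a description with no test, were SARS (r = 0.96), AARS (0.95), GADD45G (0.95), RPS18 (0.94), RPSA (0.93), GARS (0.93) and RPL30 (0.92). SARS, AARS and GARS charge the tRNAs of serine, alanine and glycine, and SARS ran from 225 CPM in clone N to 546 CPM in clone E. Ribosomal protein genes have near-identical pseudogene copies, so their counts are uncertain. RAP2A (r = -0.92), NAPB (-0.89), REP15 (-0.89) and DCLRE1B (-0.89) were most opposite. Among the members themselves r with this mean ran from 0.43 for SHMT2 to 0.86 for ASNS.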

How the data were processed

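Per the study's methods, the authors sequenced poly-adenylated RNA as single-end reads, aligned them to bosTau7 with STAR (2.3.0e in the submitters' processing notes) and counted reads per RefSeq gene with HTSeq. The authors deposited unnormalized read counts, as whole numbers. The 5 tally lines per file that name no gene stayed out of library sizes, and 18.78% to 26.81% of reads lay outside genes. The library kit as named does not mark strand, so antisense reads cannot be told apart. Levels between genes were not compared, since gene lengths were not used.

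The members and gene lists were chosen with earlier results of these data known. Counts were fitted with edgeR 4.0.16 (TMM, filterByExpr, glmQLFit, glmQLFTest) in R 4.3.3, adjusted by Benjamini-Hochberg over all genes tested. Correlations used log2(CPM + 0.25), 100000 permutations and the 10351 genes past the filter in clones. Log2 fold changes have the clones as reference. As alternatives, limma 3.58.1 (voom) and DESeq2 1.42.0 were run. Correlations were computed in numpy 2.4.6 with scipy 1.17.1 under Python 3.11.15, and figures drawn in matplotlib 3.10.9. The steps were tested on simulated data. Named genes are the members, up to 6 called genes per list and comparison with the smallest p (or the 2 smallest where none was called), the 8 genes most like the members and the 4 most opposite. Others were named after their values were seen, and a few genes that the rule names are not reported here. Clones are separate populations of 1 donor, so p-values measure spread between clones. Promoter sequences were not analysed here.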

Additional observations from a re-analysis of the deposited data

How the results depend on the processing

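No paired analysis was possible because the heterogeneous population is a single library and the replicate numbers, given in accession order, only name the samples. At a limit of 3 reads, 0.163 to 0.261 CPM per clone, all members are well counted, so the number of clones and the single mixed library limit precision. No member was called in the heterogeneous population under any alternative. Genes higher there numbered 145 (136 to 156 with each clone left out, 78 by DESeq2) and lower 1 (1 to 2, 2 with library totals, 11 by DESeq2). The member call of 1 in the clone fits was 1 under all 3 alternatives.

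The alternatives without clone O, with 12 clones, with residuals on reads outside genes and with each clone left out for correlations were added after seeing the data. TRIB3, DDIT3 and ALDH1L2 stayed called with ATF4 in all of them except the 12 clones, and ASNS except there, by rho and with library totals. Genes positive with ATF4 numbered 1444 (998 to 1803 with each clone left out, 500 with library totals against 1412 negative there, 0 in the 12 clones) and negative 1440 (1108 to 1839, 899 by rho, 0 in the 12 clones). Genes positive with PHGDH numbered 665 (0 to 678, lowest without clone N, 398 without clone Q, 91 by rho, 1237 as residuals, 33 in the 12 clones) and negative 633 (0 to 633, 319 without clone Q, 406 without clone G, 65 by rho, 1102 as residuals, 9 in the 12 clones). Apart from clone N, the cause was not tested.

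Signs turned for several pairs, not all of them near 0. With all 17 clones and TMM their r ran from -0.11 for DDIT3 with PHGDH to 0.37 for PSAT1 with ATF4. PHGDH with ATF4 had r = -0.24 with library totals, -0.014 with DESeq2 size factors, -0.42 without clone N, -0.14 by rho, -0.56 as residuals and -0.31 in the 12 clones (-0.42 to 0.18 with each clone left out). SHMT2 with ATF4 had -0.31 with library totals, -0.25 without clone N, -0.039 with the heterogeneous population, -0.12 by rho, -0.64 as residuals and -0.12 in the 12 clones (-0.25 to 0.13). MTHFD2 with ATF4 had -0.12 with library totals and -0.19 as residuals, and PSAT1 -0.12 in the 12 clones. ALDH1L2 with PHGDH had -0.076 with library totals, -0.24 without clone N, -0.0025 by rho, -0.35 as residuals and -0.056 in the 12 clones (-0.24 to 0.24). TRIB3 with PHGDH had -0.0041 with library totals, -0.26 without clone N and -0.40 as residuals (-0.26 to 0.33), and DDIT3 with PHGDH ran from -0.40 to 0.0071 with each clone left out.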
